A study of Mus musculus with 7 samples.

Results

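Of the 15153 regions in which both siRNA control libraries were enriched for 5-formylcytosine (5fC), 1453 (9.59%) held no base pair of a domain called enriched in either TDG knockdown (TDG KD) library. They covered 6.58 Mb of the 414.9 Mb of control sequence, or 1.59%. To find them, the enriched domains of the control libraries bham479 and ear001 were intersected, and an intersection was kept whole if no enriched domain of the TDG KD libraries bham480 or ear003 reached into it. Here they are called the uncalled regions, after the absent call and whatever their signal, and the 13700 control regions with at least 1 such base pair are called the touched regions. The regions were chosen by the measured domain calls of these 4 siRNA libraries, so what those libraries show is described without a test. Only the 2 wild-type libraries, the sequence and the annotation stood outside the selection. The wild-type libraries were called against the same input library as the others, so their calls and values were not fully independent of the selection.

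The study mapped 5fC in mouse embryonic stem cells of the J1 line (strain 129S4/SvJae) by chemical biotinylation, streptavidin pulldown and sequencing. The wild-type libraries bham359_362 and bham470 came from untransfected cells kept on a feeder layer of irradiated mouse embryonic fibroblasts. Feeder-free cultures of the same line received repeated rounds of transfection with a non-targeting siRNA (siRNA control) or with a SMARTpool siRNA pool against Tdg (TDG KD). TDG was lowered by siRNA alone, expression of Tdg was not analysed here, and cells with an incomplete knockdown cannot be told apart from the others in a pulldown. Each condition had 2 libraries, and 1 wild-type genomic input library served as background and was not analysed here as a separate file. The paper calls these biological replicates, and the labels do not say whether they came from separate cultures. Feeder layer and transfection both separate wild-type cells from the siRNA cultures and cannot be told apart.

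In mammalian cells, TET dioxygenases oxidise 5-methylcytosine stepwise to 5-hydroxymethylcytosine, 5fC and 5-carboxylcytosine. Thymine DNA glycosylase (TDG) cuts 5fC and 5-carboxylcytosine out of CpG sites, and base excision repair then restores an unmodified cytosine. A site that gains 5fC when TDG is lost is therefore read in the field as a site of turnover. Regions whose call is missing after the knockdown are the opposite only in the direction of the call. A missing call does not show a loss of 5fC. The paper describes the pulldown as a measure relative to input and not of absolute levels. Its mass spectrometry found more 5fC in total in TDG KD than in the siRNA control.

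The following stretches are examples picked for their CpG sites and are not typical of the uncalled regions, whose median was 8.90 CpG sites per kb. Each is the 300-base window with the most CpG sites in its region, read 5′ to 3′ on the + strand of mouse build mm9, with CG dinucleotides in capitals. The first 4 are from uncalled regions and stand for the widest one in background state in both TDG KD libraries, the widest one enriched in both wild-type libraries, the widest one with a CpG island, and one touching an enriched ear003 domain. The last is from a touched region that a single 100 bp bin kept out of the set.
background region, chr8:33856888-33857187: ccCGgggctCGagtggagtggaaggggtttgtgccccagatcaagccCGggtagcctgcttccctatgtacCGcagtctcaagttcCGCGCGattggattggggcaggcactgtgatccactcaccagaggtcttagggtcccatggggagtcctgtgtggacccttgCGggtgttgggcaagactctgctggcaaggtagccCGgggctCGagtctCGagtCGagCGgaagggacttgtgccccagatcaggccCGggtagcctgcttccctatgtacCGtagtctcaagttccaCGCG
wild-type enriched region, chr2:104926902-104927201: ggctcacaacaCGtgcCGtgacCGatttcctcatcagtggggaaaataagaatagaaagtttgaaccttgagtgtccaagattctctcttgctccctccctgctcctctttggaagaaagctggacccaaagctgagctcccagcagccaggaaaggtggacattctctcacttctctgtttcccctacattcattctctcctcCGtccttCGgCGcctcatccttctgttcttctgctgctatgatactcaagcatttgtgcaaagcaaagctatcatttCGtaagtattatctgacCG
CpG island region, chr6:35396399-35396698: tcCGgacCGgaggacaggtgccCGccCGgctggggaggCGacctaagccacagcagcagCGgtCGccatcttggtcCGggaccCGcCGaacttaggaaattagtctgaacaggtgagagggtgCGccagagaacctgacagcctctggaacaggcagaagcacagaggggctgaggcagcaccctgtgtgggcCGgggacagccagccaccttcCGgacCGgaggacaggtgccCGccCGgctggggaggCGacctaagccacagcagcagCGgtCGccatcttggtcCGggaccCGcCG
Ube2h region, chr6:30231024-30231323: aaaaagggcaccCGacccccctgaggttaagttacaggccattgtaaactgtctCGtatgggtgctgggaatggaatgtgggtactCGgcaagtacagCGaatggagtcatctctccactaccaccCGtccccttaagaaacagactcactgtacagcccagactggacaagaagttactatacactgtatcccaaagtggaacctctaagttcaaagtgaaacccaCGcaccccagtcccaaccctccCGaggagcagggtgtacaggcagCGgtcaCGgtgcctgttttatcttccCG
touched region, chr3:52338116-52338415: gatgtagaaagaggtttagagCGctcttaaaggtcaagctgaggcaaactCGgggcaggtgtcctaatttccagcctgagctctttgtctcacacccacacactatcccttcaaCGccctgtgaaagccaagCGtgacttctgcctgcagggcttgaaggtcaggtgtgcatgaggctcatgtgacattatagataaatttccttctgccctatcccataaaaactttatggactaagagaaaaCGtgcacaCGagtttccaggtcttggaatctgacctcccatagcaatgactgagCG

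These windows held 17, 8, 22, 10 and 7 CpG sites in that order, and the second and the last, one on each side of the selection, differed by 1 CpG site. The CpG island window contained an exact direct repeat of 88 bases, and the background window one of 29 bases. Reads that could not be placed at a single genomic position had been removed by the authors.

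The uncalled regions were short pieces. Their median width was 3300 bp (quartiles 1700 and 6100 bp, range 100 to 74900 bp), against 14500 bp in the touched regions. Of control regions under 2 kb, 37.8% were uncalled, of those between 2 and 5 kb 25.1%, of those between 5 and 10 kb 11.6%, and of those of 10 kb or more 1.52%. A wide region has more places at which an enriched knockdown domain can touch it, so the width follows in part from the rule. In all, 214 of the 1453 regions were under 1000 bp and 134 reached 10 kb.

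The absence of the enriched call meant different things in the TDG KD libraries, which were of unequal kind. The library ear003 called 21.9% of its sequence enriched and 0.0862% unconfident, the state the domain caller gives where neither call is safe. The library bham480, the shallowest with 20.4 M uniquely placed reads against 27.4 M to 45.9 M in the others, called 6.32% enriched and 19.8% unconfident. In ear003, 97% of the uncalled sequence was in background state and 2.99% was unconfident. In bham480, 48.2% was background and 51.7% unconfident.

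**Figure D1:**
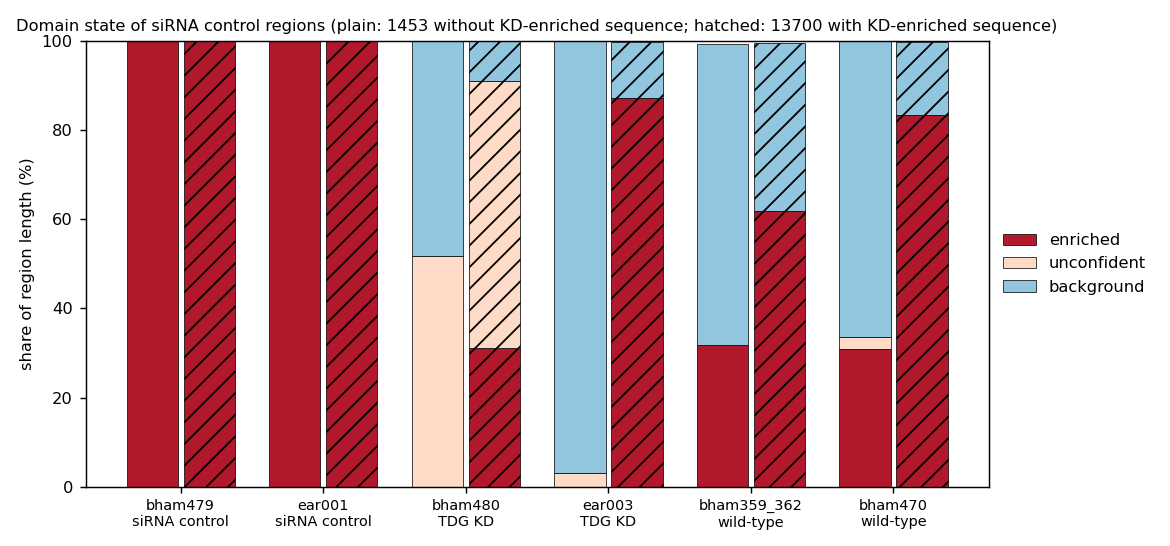
Share of region length (%) in each domain state, for the 1453 uncalled regions (plain bars) and the 13700 touched regions (hatched bars) in each of the 6 libraries. The control bars are fully enriched and the plain TDG KD bars hold no enriched length because the regions were selected so; the wild-type bars were not used by the selection. In bham359_362 the small remainder below 100% lies in no domain of that library.

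Counted as regions, with a state given where it covers at least 90% of the length, 670 of the 1453 (46.1%, 2.65 Mb) were background in both TDG KD libraries. A further 617 (42.5%, 2.50 Mb) were background in ear003 and unconfident in bham480, and 152 were background in ear003 with a mixture of states in bham480. Only 6 were unconfident in both, 7 were unconfident in bham480 and mixed in ear003, and 1 was background in bham480 and unconfident in ear003. For every region outside the first class, the data show the absence of an enriched call over some of the sequence and not a background call, which goes against describing the whole set as not enriched.

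The domain values are pulldown minus input reads per 100 bp bin averaged over a domain and come from the same reads as the calls, so in the siRNA libraries their direction was fixed by the selection. In the controls, the median value over the uncalled regions was 0.554 in bham479 and 0.259 in ear001. In the knockdown libraries it was -0.278 in bham480 and 0.0175 in ear003, and in wild-type cells 1.26 in bham359_362 and 0.0616 in bham470. Libraries were not scaled to each other, so each value was also set against the mean of its own library.

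On that scale the medians were 0.45 and 0.21 above the library mean in the controls bham479 and ear001, and -0.0011 and -0.0627 in bham480 and ear003. The share of uncalled regions above the library mean was 98.9% and 97.5% in the controls, 49.4% in bham480 and 27.7% in ear003. Within libraries of the same name prefix, the knockdown value relative to its library mean was below the control value in 1433 regions for the BHAM libraries and in 1423 for the EAR libraries, and in 1403 (96.6%) for both. In the BHAM libraries the touched regions did the same, with 98.3% below the control and a median difference of -0.30 against -0.47 in the uncalled regions. In the EAR libraries they did not, with 14.8% below the control and a median difference of 0.25 against -0.28. Of the touched regions, 99.3% held enriched ear003 sequence, whereas the uncalled regions held none by the rule. The opposite directions in the EAR libraries therefore follow at least in part from the selection, and no conclusion is drawn from them.

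**Figure D2:**
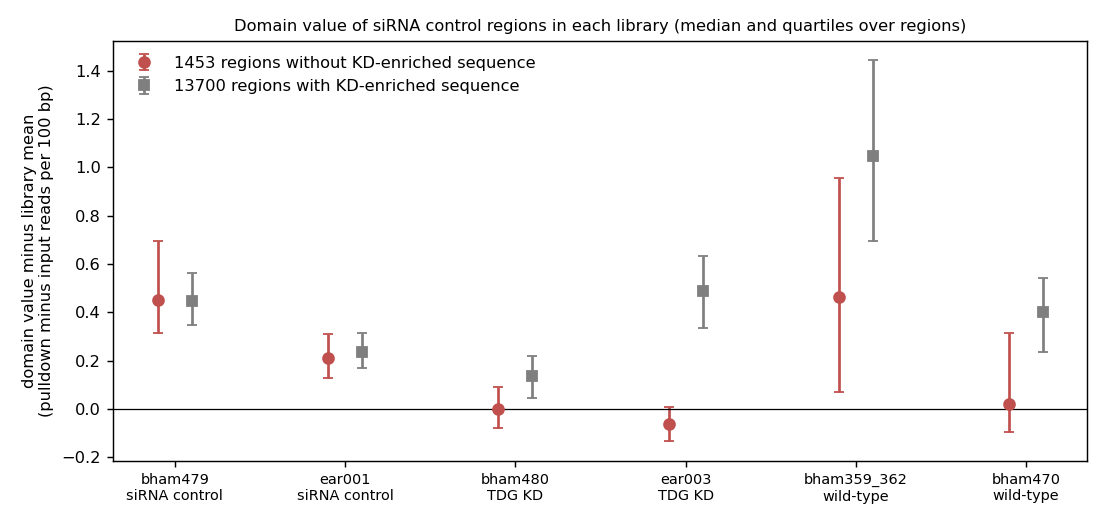
Domain value minus the mean of the library (pulldown minus input reads per 100 bp) for the 1453 uncalled regions (circles) and the 13700 touched regions (squares). Points are medians and bars are quartiles over regions, not errors over replicates. Pooled over widths, the medians of the 2 kinds of region lie close together in the control libraries. Within each width class the uncalled median is the lower one in both controls, at 10 kb and above 0.324 against 0.434 in bham479 and 0.207 against 0.243 in ear001. Among the siRNA libraries the 2 kinds lie furthest apart in ear003, whose calls made most of the selection.

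Most of the selection was made by ear003. Of the touched regions, 11121 held enriched sequence of ear003 alone, 2486 of both TDG KD libraries and 93 of bham480 alone. Asked of bham480 alone, the rule kept 12574 regions with 265.1 Mb, and asked of ear003 alone it kept 1546 regions with 7.0 Mb.

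The wild-type libraries, which took no part in the selection but shared its input, were enriched over less of uncalled than of touched sequence. Enriched domains covered 31.8% of the uncalled length in bham359_362 and 30.9% in bham470, against 61.9% and 83.4% of the touched length. Over the whole genome these libraries called 18.7% and 20.8% of their sequence enriched, so the uncalled regions lay above the genome and below the touched regions in both. The difference was -41.3 percentage points ± 15.8 (SD, n = 2 libraries), with a two-sided exact sign-flip permutation p = 0.5, which is the smallest p that 2 libraries allow. With ear003 left out of the rule, the difference was -10.3 percentage points.

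The wild-type domain values gave the same order. Weighted by length and set against the library mean, the uncalled regions stood at 0.461 in bham359_362 and 0.0811 in bham470, and the touched regions at 1.29 and 0.49. Both libraries were lower in the uncalled regions, at a mean difference of -0.62 (-0.29 with ear003 left out of the rule), and the exact sign-flip permutation p was again 0.5, the smallest possible.

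The wild-type difference was present at every width. Under 2 kb, 40.8% of uncalled against 65.2% of touched length was enriched in bham359_362, and 33.2% against 63.1% in bham470. From 2 to 5 kb the pairs were 36.4% and 55.4% in bham359_362, and 31.1% and 64.7% in bham470. From 5 to 10 kb they were 31.1% and 51.4%, and 33% and 67.8%. At 10 kb and above they were 26.7% and 62.6%, and 27.7% and 84.5%.

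**Figure D3:**
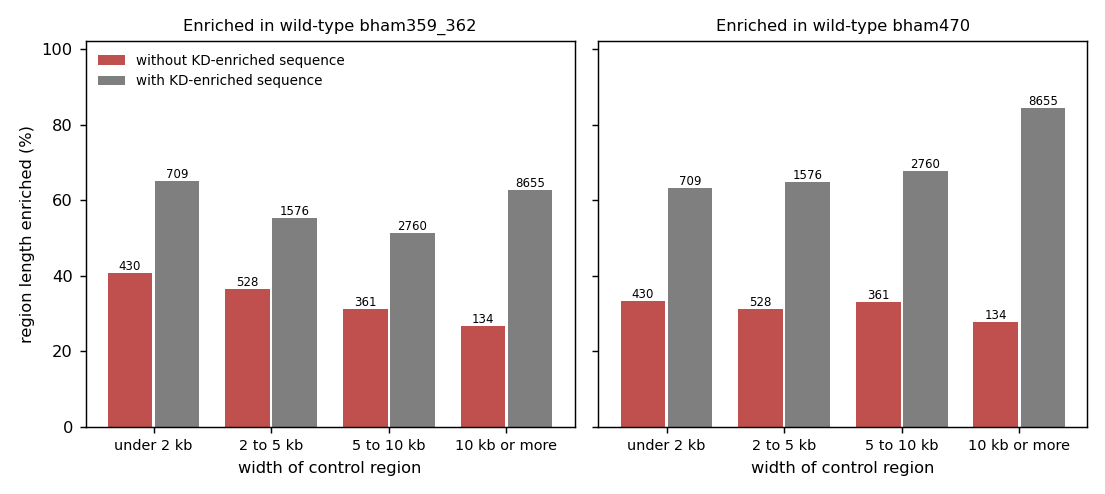
Share of region length (%) enriched in each wild-type library, by width of the control region, for uncalled (red) and touched (grey) regions. Numbers above the bars are regions, bars are pooled over the length in a class and carry no replicate error, and the red bar is lower than the grey bar in all 8 pairs.

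Few of the uncalled regions were wholly enriched in both wild-type libraries, at a joint share near that of all control regions. Regions enriched over at least 90% of their length in both wild-type libraries numbered 56 (3.85%), beside 4.28% of all control regions. Taken singly, bham470 was enriched over at least 90% of the length in 23.3% of uncalled regions, beside 49.0% of all control regions. In bham359_362 the shares were 7.57% and 5.58%. The joint background counts stood further apart than the joint enriched ones. Regions in background state over at least 90% of their length in both wild-type libraries numbered 261 (18%), beside 3.06% of all control regions, and those touching no enriched domain of either wild-type library numbered 175 (12.0%), beside 1.70% of all control regions. Enriched domains of bham359_362 are short and many (389620, against 28356 in bham470), so touching one is a weaker criterion there. The uncalled regions were also narrower, and these counts were not split by width.

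The uncalled regions also differed among themselves in wild-type cells according to their knockdown state. In the 670 regions background in both TDG KD libraries, enriched domains of bham359_362 took up 28.7% of the sequence and those of bham470 24.2%. In the 617 regions unconfident in bham480 and background in ear003, the values were 34.8% and 40.2%. The first class was lower in both libraries, by 11 percentage points ± 7.08 (SD, n = 2), with an exact sign-flip permutation p of 0.5, the smallest possible, in a comparison chosen after the values had been seen. The difference to the 6 regions unconfident in both libraries had opposite signs in the wild-type libraries (exact sign-flip permutation p = 1), where enriched domains took up 62.5% of their sequence in bham359_362 and 5.92% in bham470.

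Sequence and position separated the uncalled from the touched regions as well. Their GC content had a median of 44.5% against 47.2%, and they held a median of 8.90 CpG sites per kb against 11.8. Pooled over length, the density was 9.20 CpG sites per kb, against 13.1 in the touched regions and 8.34 in the genome, so the sequence was close to the genome in CpG content. The 56 regions enriched in both wild-type libraries had a median GC content of 47.4%, and the 261 that were background in both had 42.5%. These are counts over sequence and not over replicates, so no test was applied.

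CpG islands, stretches of dense CpG that mark many promoters, were touched by 52 of the uncalled regions (3.58%) and by 27.1% of the touched regions. The gap was present at each width, with shares of 1.16% and 4.65% under 2 kb, and of 10.4% and 37.6% at 10 kb and above. A protein-coding start site lay within 1000 bp of 94 uncalled regions (6.47%) and of 32.4% of touched regions. No protein-coding gene was overlapped by 776 (53.4%), against 33.9% of touched regions. A further 378 (26%) lay in introns only, against 13.03%, and 299 (20.6%) touched an exon, against 53.09%. Touched regions were wider, and these gene, intron and exon shares were not split by width. By length, gene bodies took up 41.75% of uncalled sequence, 56.03% of touched sequence and 38.88% of the genome.

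**Figure D4:**
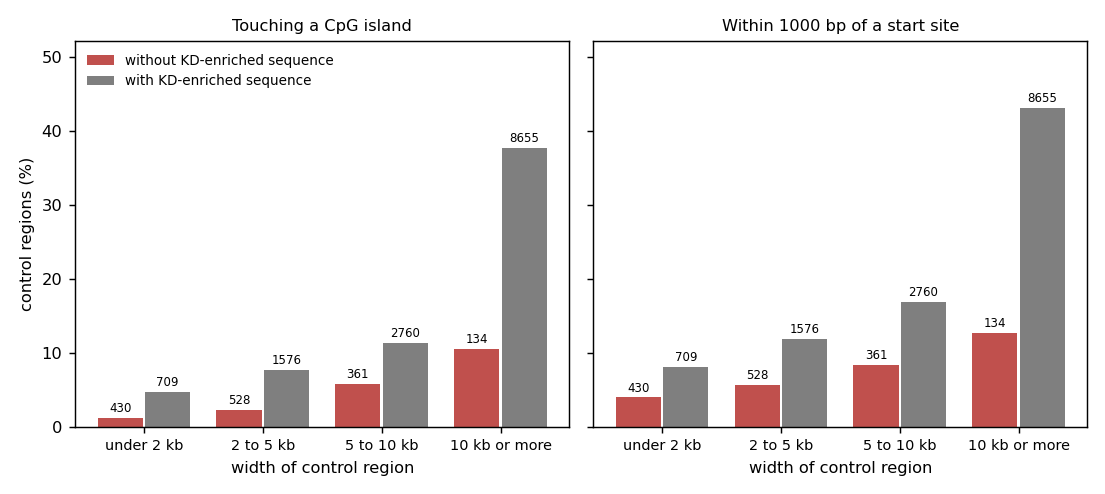
Share of control regions (%) that touch a CpG island (left) or lie within 1000 bp of a protein-coding start site (right), by width of the region, for uncalled (red) and touched (grey) regions, with the number of regions above each bar. The red bar is lower than the grey bar in all 8 pairs, and both rise with width.

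Sequence present in several copies was a part of the set. A 40-base read, the length sequenced here, was unique in the genome at 91.3% of the positions examined in uncalled regions, 94.2% in touched regions and 86.3% in the genome. The median region was unique at 98.1% of its positions, and 19 regions (1.31%) were unique at fewer than 50%. In the 134 uncalled regions of 10 kb or more the share was 84.8%, against 94.0% in touched regions of that width. In the 52 that touch a CpG island it was 72.8%, and 23.4% of their positions carried a sequence with over 10 copies.

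The uncalled regions were often fragments of wider 5fC domains. The ear001 domain that held a region had a median width of 27400 bp, and the bham479 domain one of 6000 bp. A region filled the whole bham479 domain in 746 cases (51.3%) and the whole ear001 domain in 101 (6.95%). In 949 cases (65.3%) the same ear001 domain held enriched ear003 sequence elsewhere along its length. In 382 cases (26.3%) both control domains were free of enriched knockdown sequence over their full length, which is a stricter criterion.

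Enriched ear003 sequence lay at a median distance of 6000 bp, and within 5000 bp of 625 regions (43.0%). Enriched bham480 sequence was at a median of 100800 bp. The library ear003 had 40121 enriched domains and bham480 had 4901, and these distances were not set against those from other sequence. At the threshold itself, 11 uncalled regions had a knockdown domain directly at their edge. On the other side, 48 control regions were left out because of 100 bp or less, 257 because of 500 bp or less, and 105 because of at most 10% of their length. Control sequence outside every knockdown domain but inside touched regions came to 45.3 Mb, several times the sequence in the set.

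The region in an intron of Ube2h, a ubiquitin-conjugating enzyme gene, was just inside the threshold (chr6:30230901-30234700). Its values were 0.921 in bham479, 0.232 in ear001, -0.276 in bham480, 0.0554 in ear003, 1.29 in bham359_362 and 0.112 in bham470. An ear003 domain ended where the region began. The region just outside it (chr3:52333648-52341547) had 100 bp in an ear003 domain and values of 0.383, 0.293, -0.354, 0.112, 0.816 and 0.18 in the same order. In each of the pair, both controls and both wild-type libraries lay above their library means.

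The second widest region (chrX:121264819-121316318, 51500 bp), 15299 bp from the pheromone receptor gene Vmn2r121, was unique at 54.4% and unconfident over 100% in bham480 and 84.1% in ear003.

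The third widest (chr3:25415171-25456770) filled 41600 bp of an intron of Nlgn1, which encodes the synaptic adhesion protein neuroligin 1, and was unique at 99.2% of its positions. Its values were 0.153 in bham479, 0.147 in ear001, -1.36 in bham480, -0.549 in ear003, 1.67 in bham359_362 and -0.58 in bham470. Both controls and bham359_362 were enriched there, over 51.9% of the length in the latter, while bham480, ear003 and bham470 were low and unconfident. The next (chr1:155452088-155483487) lay 16667 bp from Rgs8, a regulator of G protein signalling. It was enriched over 84.4% of its length in bham470 and 29.3% in bham359_362, and an ear003 domain lay 700 bp away.

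The widest region in background state in both TDG KD libraries (chr8:33841626-33870225, 28600 bp) overlapped no protein-coding gene. Its values were 0.364 in bham479, 0.227 in ear001, -0.241 in bham480, 0.0031 in ear003, 0.405 in bham359_362 and -0.109 in bham470. Relative to their own means, both controls were high, bham480 was 0.0359 above, and ear003 and both wild-type libraries were below. The wild-type library bham470 had no enriched sequence in it, and bham359_362 had 11.2%.

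Others of that class also had no enriched sequence in bham470, while their enriched share in bham359_362 varied. The region in Slc35d1 (chr4:102849802-102869301), a nucleotide sugar transporter gene, was enriched over 28.2% in bham359_362 and 0% in bham470. The one 31507 bp from Cacna2d3 (chr14:30566558-30589957), a calcium channel subunit gene, was enriched over 28.6% and 0%. The one 55594 bp from Mtpn (chr6:35379512-35403311), which encodes myotrophin, was enriched over 3.36% and 0%, and only 44.5% of its positions were unique. It holds the CpG island window shown above.

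In contrast, the widest region enriched in both wild-type libraries (chr2:104923353-104928752, 5400 bp) had values of 0.703 in bham479, 0.176 in ear001, -0.487 in bham480, -0.0347 in ear003, 2.48 in bham359_362 and 0.499 in bham470. All 4 libraries without the knockdown were above their means, and both knockdown libraries were below theirs, at -0.21 and -0.115 relative to the mean. An enriched ear003 domain nevertheless lay 1700 bp away, and bham480 was unconfident over the whole region. The intergenic region chr19:38552806-38556005 lay 42681 bp from Plce1, a phospholipase C gene. It was the most CpG-dense of the 5 widest of this kind, with 38.8 CpG sites per kb and 642 bp of CpG island. Its values were 1.03 in bham479, 0.298 in ear001, -0.175 in bham480, 0.0129 in ear003, 2.09 in bham359_362 and 0.332 in bham470.

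**Figure D5:**
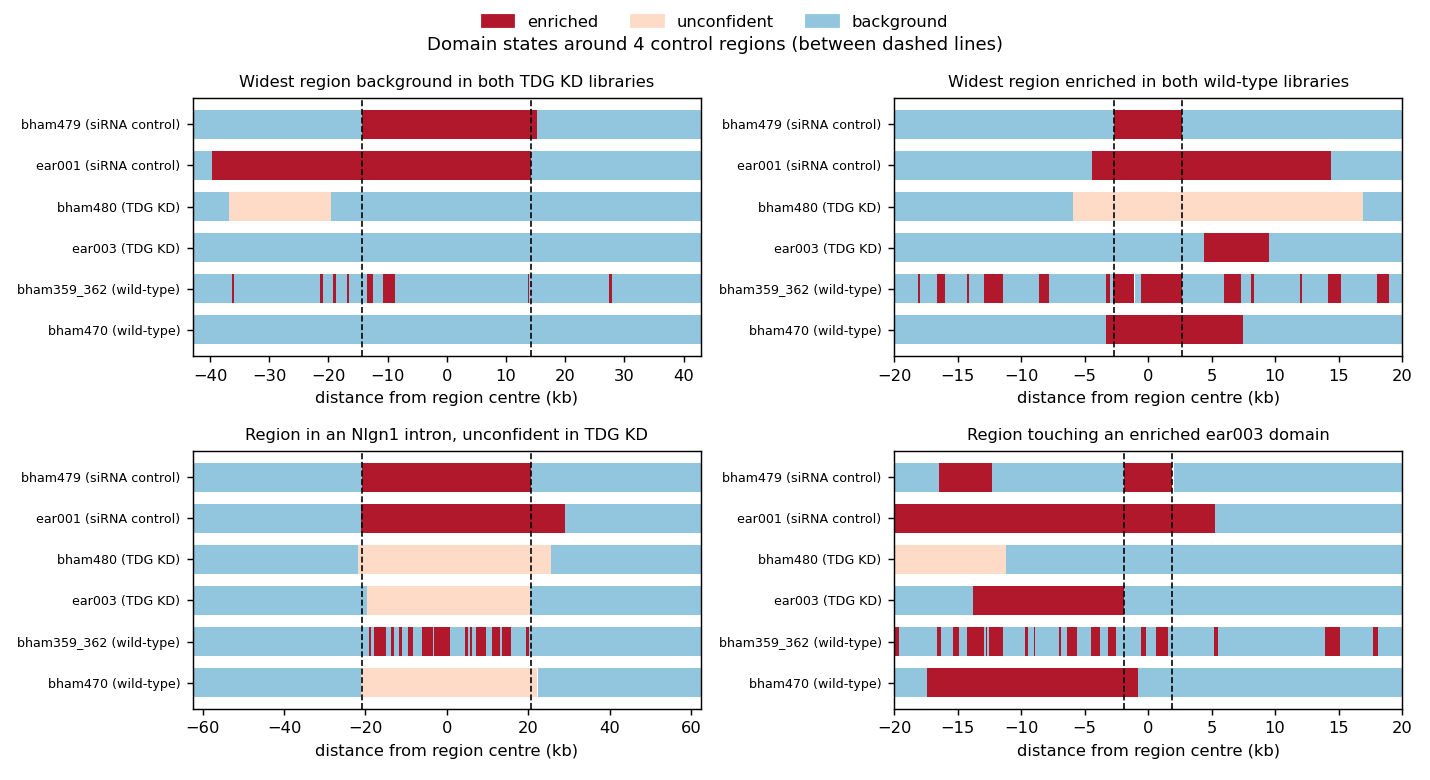
Domain state of the 6 libraries around 4 uncalled regions (dashed lines), against the distance from the region's centre (kb). The widest region enriched in both wild-type libraries and the Ube2h region (lower right) have an enriched ear003 domain beside them, whereas the widest background region has none within the window and the Nlgn1 intron is unconfident in bham480, ear003 and bham470.

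The regions unconfident in both knockdown libraries included places where the ear003 value was high. Apart from the Nlgn1 intron and a region on the Y chromosome, the 6 comprised 4 on chromosome 11 in or beside Sfi1, a centrosome protein gene, and Drg1, a GTPase gene. The smallest of them (chr11:3032101-3032800) had values of 12.3 in bham479, 17.1 in ear003, 34 in bham359_362 and 13 in bham470. Those of 2.83 in ear001 and -2.77 in bham480 are means of domains of 101500 and 102200 bp that cover all 4, so they say little about a region of 700 bp. In ear003 and bham470 the domains that held this smallest region were also wider than it, at 5800 and 5900 bp. Its neighbours chr11:3045101-3046100 and chr11:3046301-3049800 stood at 6.32 and 7.67 in ear003, far above that library's mean of 0.0802. In these 3 regions ear003 was thus unconfident and not enriched at values above its library mean. The fourth (chr11:3093101-3101100) was at -0.197.

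Genes rarely began in the uncalled regions. Of 22367 protein-coding genes, 98 (0.438%) had a start site within 1000 bp of one, whereas 8287 (37.1%) had one within 1000 bp of any control region. Start sites of 69 genes lay inside, and 27 of these genes had a CpG island in the same region. The widest such regions held Defb3, an antimicrobial defensin gene (23800 bp), Anxa13, an annexin gene (17300 bp), and the mast cell protease genes Mcpt1 and Mcpt9 together (16400 bp).

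Defb3 lay in a region (chr8:19284190-19307989) with values above the library mean of 0.292 in bham479 and 0.253 in ear001. In wild-type cells, bham470 was below its mean (-0.143) and bham359_362 was at its mean (-0.000479). The Mcpt1 and Mcpt9 region (chr14:56634661-56651060) was instead enriched over 80.5% of its length in bham470 and 23.2% in bham359_362. Aptx, which encodes aprataxin, a DNA strand break repair protein, began in a region enriched over 43.5% in bham359_362 and 0% in bham470. Nedd9, a focal adhesion scaffold gene, began in one enriched over 33.3% and 84.4%. The wild-type libraries thus differed in enriched share at several of these genes, but less so in value. Relative to the library mean, bham359_362 and bham470 were both above at Mcpt1 and Mcpt9 (0.451 and 0.148) and at Nedd9 (0.356 and 0.347). At Aptx they stood at 0.721 and -0.016.

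None of the lists of developmental and regulatory genes had a start site near an uncalled region. The counts were 0 of 23 pluripotency genes, 0 of 24 genes of DNA demethylation and repair, 0 of 40 Hox genes, 0 of 32 imprinted genes, 0 of 36 axon guidance genes and 0 of 24 fibroblast genes, the last taken to stand for the feeder cells. At the share of all genes, 0.438%, a list of this size would hold less than 1, so these zeros are not a result about the lists. Any control region lay near the start of 10 of the 23 pluripotency genes (43.5%) and 15 of the 24 demethylation and repair genes (62.5%), beside 37.1% of all genes. The shares were 47.5% for Hox, 46.9% for imprinted, 41.7% for axon guidance and 41.7% for fibroblast genes, so the pluripotency share was not particular to that list. Olfactory receptor genes gave 5 of 1113 (0.449%), namely Olfr532, Olfr1331, Olfr1385, Olfr1393 and Olfr1513, and vomeronasal receptor genes 1 of 328, Vmn1r223.

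Some uncalled regions lay in the bodies of long genes. The most sequence was in Gria1, an AMPA-type glutamate receptor subunit gene, with 42300 bp in 5 regions, followed by Nlgn1 with 41600 bp in 1 and Csmd1, a complement-regulating membrane protein gene of the brain, with 36453 bp in 8. The others among the 10 genes with most such sequence were Accn1 and Odz4 (27700 bp each), Large (23400 bp), Eml6 (22700 bp), 4930506M07Rik (21658 bp), Dner (20900 bp) and Inpp4b (20600 bp). Of the neuronal adhesion genes, 7 of 58 held uncalled sequence in their body (Csmd1, Ctnna3, Nlgn1, Ntm, Odz2, Odz3 and Odz4), and of the neurotransmitter receptor genes 5 of 36 (Gria1, Grid1, Grin2a, Grm8 and Htr2a), against 570 of all 22367 genes (2.55%). The median length of the genes on these lists was 579238 and 236525 bp, against 15427 bp for all genes, and a long gene has more room for a region. Slc38a4 was the one imprinted gene and Plxna4 the one axon guidance gene with such sequence in the body.

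The uncalled regions were spread over the genome. Their share of control regions ran from 6.41% on chromosome 15 to 13.8% on chromosome 10 among the autosomes, and chromosome 8 held the most, 154. Only 3 lay on the X and Y chromosomes, of 7 control regions there.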

How the data were processed

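Libraries of 5fC-enriched DNA from J1 cells were sequenced as single-end reads of 40 bases, 20.4 M to 45.9 M uniquely placed reads per library. Per the methods of the study, the authors aligned reads to mm9 with BWA (version 0.6.1, from the submitters' processing notes, which also name CASAVA), kept uniquely placed reads and ran the domain caller rseg on 100 bp bins of pulldown and input. The deposited files give each domain's state and, as a score, its mean pulldown minus input reads per bin, without scaling between libraries or replicate pooling. The second score column was not used.

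Domains were intersected base by base in Python 3.11.15 with NumPy 2.4.6 and SciPy 1.17.1, and genes were taken from GENCODE M1. A region took a state covering at least 90% of its length. CpG islands were segments of at least 200 bp, over 50% GC and over 0.6 observed to expected CpG. Uniqueness was read every 20 bp as exact 40-base matches on either strand, which allows no mismatch. Wild-type differences were tested by exact sign flips over 2 libraries. Interval operations were tested on simulated data. Depth limits each score by counting error, which the files do not give.

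Regions and gene lists were chosen with earlier results of these data known. Regions named are from the 5 widest of all, in background state in both TDG KD libraries, enriched in both wild-type libraries or with a CpG island, those nearest the threshold on either side, and the few unconfident in both libraries, the last chosen after their values were seen. Genes named are from those starting in the widest regions, listed genes, and the 10 with most sequence in their bodies. Groups came from the sample labels. The widest of all is not reported here.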

Additional observations from a re-analysis of the deposited data

How the results depend on the processing

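No paired analysis was possible because the labels number no replicates and do not say what the shared name prefixes mark, and values within each prefix are given instead. The lower wild-type share and value in uncalled than in touched regions kept their sign in all alternatives, from -52.4 to -10.3 percentage points for the share. Counts stayed within 1.5 times the reported number with a minimum width, a tolerated overlap, joining, or without chromosome 8 or X and Y.

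Leaving out one library at a time gave 1117 to 12574 regions, 7.0 to 265.1 Mb, 16.6% to 99.1% in background state in the knockdown, and an enriched wild-type share of 18.3% to 68.3%. The extremes of number, sequence and wild-type share upward came without ear003. Without ear001 the rule kept 5953 regions with 30.2 Mb, and without bham479 it kept 11.3 Mb. Dropping the lowest-value 25% of domains gave 16.6 Mb, 19% background and a wild-type share of 55.6%. Letting unconfident domains also remove a region left 662 regions with 2.60 Mb, 100% background by construction and 26.4% wild-type. Within BHAM the rule kept 22828 regions, 386.2 Mb, 36.3% background and 59.5% wild-type, and within EAR 12.3 Mb, 99% background and 18.6% wild-type. Without chromosome 8 the wild-type share was 34.3%.

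The share in background state in both libraries was 49.8% when a state needed 50% of the length. The stricter CpG island definition gave 1.24%, and a start site inside the region or within 5000 bp gave 4.54% and 13.6%. The difference between regions background and unconfident in both libraries reversed, to 10.9 points within EAR and 2.56 with a state at 50% of the length, and ran from -33.8 to 18.3 points when single libraries were left out. Dropping regions with under 50% unique positions, an alternative chosen after seeing the data, gave a wild-type difference of -41.2 points. Beyond what the altered rule itself removes or adds, the cause was not tested.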
